A study of Mus musculus with 6 samples.

Results

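The genes of the microtubule cytoskeleton were followed in mouse fibroblasts given the enzyme Tet3 to convert them towards neurons. A gene was taken as a member when its current symbol begins with Tuba (alpha tubulin), Tubb (beta tubulin) or Kif (kinesin) followed by a digit, or is one of the microtubule-associated proteins Map1a, Map1b, Map1s, Map2, Map4, Map6 and Mapt. Of the 20659 genes that the array's probes could be matched to, 60 were members: 7 alpha tubulins, 9 beta tubulins, 37 kinesins and 7 microtubule-associated proteins, counting the pseudogenes Kif4-ps and Tubb2a-ps2. RefSeq holds 69 symbols that meet the rule, and the 9 with no matched probe were not analysed here, the mitotic kinesin Kif14 among them. Where several probes matched a gene, as for 21 members, the one with the highest mean over the 6 arrays was used.

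The study hybridised 6 mouse RNA samples, 1 array each, so no difference has a replicate check and no test was made between groups. Mouse embryonic fibroblasts (MEF) came from E13.5 embryos of the ICR stock. For 4 samples such fibroblasts had been given adenovirus in 2 rounds to introduce Tet3, a dioxygenase that oxidises 5-methylcytosine, and were collected at 1, 3, 5 and 7 days post infection (dpi). On days 3 and 5 after the second round part of the medium was exchanged for neuronal medium with forskolin, an activator of adenylyl cyclase, so virus, time and medium cannot be told apart. The labels name no control virus and do not say which promoter drives Tet3 or whether animals were pooled. They also do not say whether the MEF sample received any virus or the neuronal medium. The sixth sample was primary neurons, also labelled E13.5, whose own label gives no Tet3 treatment.

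Microtubules are hollow polymers of alpha and beta tubulin dimers. In dividing cells they are rebuilt into the spindle, where mitotic kinesins separate the poles, align and segregate chromosomes and complete cytokinesis. A neuron does not divide. Its microtubules instead serve as tracks in axons and dendrites, stabilised and spaced by microtubule-associated proteins, and kinesins carry vesicles and organelles along them. For the contrast below, 10 kinesins with a role in division (Kif2c, Kif4, Kif11, Kif15, Kif18a, Kif18b, Kif20a, Kif20b, Kif22 and Kif23) were called the mitotic members. The 19 neuronal members were 7 tubulins (Tuba1a, Tuba4a, Tuba8, Tubb2a, Tubb2b, Tubb3, Tubb4a), 5 microtubule-associated proteins (Map1a, Map1b, Map2, Map6, Mapt) and 7 kinesins (Kif1a, Kif3c, Kif5a, Kif5c, Kif17, Kif21a, Kif21b).

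The start-site windows of the mitotic members are shown first because they share letters that most neuronal windows lack and that neither class was chosen by. RefSeq promoter windows on GRCm38.p6, each 300 bases long with 250 before and 50 after the annotated start, were matched by symbol for 48 of the 60 members, among them 9 of 10 mitotic and 14 of 19 neuronal members. Each was searched on both strands for TTTGAA, the core of the cell cycle genes homology region (CHR) through which the DREAM and MuvB complexes time the genes of late cell cycle phases, and for CCAAT, the box bound by NF-Y. The 5 mitotic windows that held both are given 5′ to 3′, with each match of either motif or its reverse complement in capitals.
Kif11 (chr19:37376132-37376431, + strand): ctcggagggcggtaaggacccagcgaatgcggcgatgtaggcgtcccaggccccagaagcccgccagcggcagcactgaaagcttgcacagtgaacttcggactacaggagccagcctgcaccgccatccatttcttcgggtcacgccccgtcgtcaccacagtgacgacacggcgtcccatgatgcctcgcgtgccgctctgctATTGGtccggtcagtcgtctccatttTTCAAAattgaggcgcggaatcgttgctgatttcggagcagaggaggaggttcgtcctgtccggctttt
Kif18b (chr11:102925075-102925374, - strand): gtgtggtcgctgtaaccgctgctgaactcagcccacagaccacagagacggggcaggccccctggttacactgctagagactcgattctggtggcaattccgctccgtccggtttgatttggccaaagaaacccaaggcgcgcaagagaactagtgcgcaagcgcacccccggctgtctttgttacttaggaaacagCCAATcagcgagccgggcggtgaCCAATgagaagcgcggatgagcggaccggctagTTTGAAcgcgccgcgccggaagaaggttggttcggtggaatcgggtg
Kif22 (chr7:127042371-127042670, - strand): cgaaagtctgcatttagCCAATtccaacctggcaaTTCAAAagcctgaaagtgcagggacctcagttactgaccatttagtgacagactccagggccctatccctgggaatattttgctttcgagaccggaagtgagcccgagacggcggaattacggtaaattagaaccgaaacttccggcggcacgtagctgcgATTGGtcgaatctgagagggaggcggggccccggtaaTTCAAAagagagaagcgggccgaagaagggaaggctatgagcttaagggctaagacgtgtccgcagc
Kif23 (chr9:61946750-61947049, - strand): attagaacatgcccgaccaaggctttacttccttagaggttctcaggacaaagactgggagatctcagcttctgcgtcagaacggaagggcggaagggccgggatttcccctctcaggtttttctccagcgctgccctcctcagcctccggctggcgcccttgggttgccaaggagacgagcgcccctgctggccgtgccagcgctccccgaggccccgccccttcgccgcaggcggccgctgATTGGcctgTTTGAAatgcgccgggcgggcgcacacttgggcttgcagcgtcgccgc
Kif4 (chrX:100625815-100626114, + strand): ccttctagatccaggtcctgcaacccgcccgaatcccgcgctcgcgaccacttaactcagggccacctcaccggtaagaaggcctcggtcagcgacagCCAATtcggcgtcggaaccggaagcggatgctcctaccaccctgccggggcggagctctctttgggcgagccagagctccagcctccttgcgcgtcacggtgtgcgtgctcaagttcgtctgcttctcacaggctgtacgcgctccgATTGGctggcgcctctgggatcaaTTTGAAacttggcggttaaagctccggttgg

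Kif11 is the plus-end motor that pushes spindle poles apart, Kif18b shortens astral microtubules, Kif22 pushes chromosome arms outward, Kif23 bundles the central spindle for cytokinesis and Kif4 organises chromosomes and the spindle midzone. TTTGAA on either strand was in the windows of 8 of 9 mitotic members, all but Kif18a, and in 1 of 14 neuronal members, in 1 of the windows of Kif1a. Counted the same way, over any window of a gene, it was in 20.2% of all 27025 genes of the table. Both motifs stood together in 5 of 9 mitotic and 0 of 14 neuronal members, against 8.0% of all genes. For 7 of 9 mitotic members a TTTGAA began within 50 bases of the start, which 5.7% of all genes shared; that distance was chosen after the matches had been seen. Counting the first of the last 50 bases as 0, it began at -19 in Kif11, -17 in Kif22, 2 in Kif23, 3 in Kif18b and 19 in Kif4. A match describes the letters and is no evidence of binding.

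For comparison, the windows of the neuronal beta tubulin Tubb3 and of Kif5c, a conventional kinesin heavy chain enriched in neurons, are printed the same way. Both genes had far higher levels in neurons than in MEF, and neither window holds TTTGAA.
Tubb3 (chr8:123411303-123411602, + strand): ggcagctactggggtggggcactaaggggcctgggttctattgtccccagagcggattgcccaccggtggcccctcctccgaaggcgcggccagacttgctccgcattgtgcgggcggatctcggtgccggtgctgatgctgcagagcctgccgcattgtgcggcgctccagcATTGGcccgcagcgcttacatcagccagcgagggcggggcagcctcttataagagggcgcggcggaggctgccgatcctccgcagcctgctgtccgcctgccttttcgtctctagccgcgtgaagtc
Kif5c (chr2:49619036-49619335, + strand): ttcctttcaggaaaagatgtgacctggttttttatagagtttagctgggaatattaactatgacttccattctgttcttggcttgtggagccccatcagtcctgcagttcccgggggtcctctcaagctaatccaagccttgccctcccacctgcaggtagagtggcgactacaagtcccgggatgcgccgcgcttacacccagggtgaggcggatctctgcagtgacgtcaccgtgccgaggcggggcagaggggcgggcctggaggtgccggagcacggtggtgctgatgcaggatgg

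**Figure D1:**
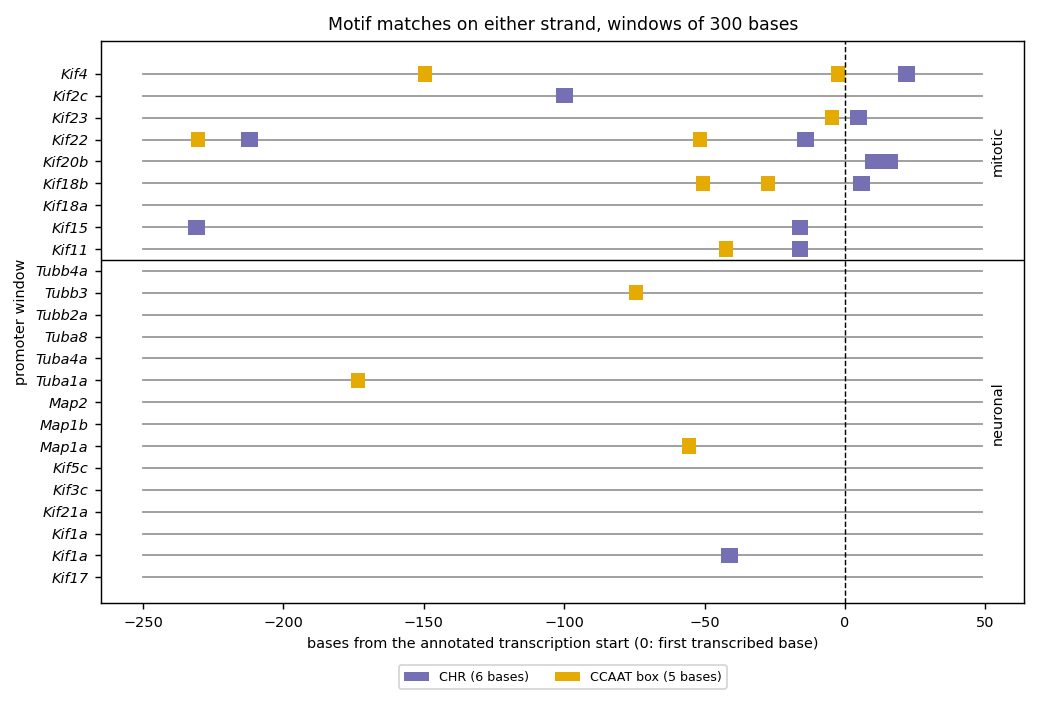
Positions of TTTGAA and CCAAT, on either strand, in the RefSeq start-site windows of the mitotic members (upper rows) and the neuronal members (lower rows). The horizontal axis is the distance in bases from the annotated start, each row is 1 window, and the coloured marks are matches: TTTGAA lies in 8 of 9 mitotic members and in 1 of 14 neuronal members, close to the start in most of the former.

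All levels below are log2 values from the authors' series table, which place every array's 75th percentile at 0. They compare 1 probe between arrays and not 1 gene with another. A difference of at least 2-fold between arrays (1 on the log2 scale) was counted as higher or lower. The scanner's own error on such a difference had a median of 0.204 over the members; it covers the array only and leaves out biological variation. Of the 60 members, 54 were well above background on all 6 arrays and 1, Kif2b, on none. MEF and 1 dpi were read in a first scan and the other 4 arrays in a second, so for 3, 5 and 7 dpi and neurons the scan and the group cannot be told apart when MEF is the base. Between 72.88% and 86.08% of probes were above background per array.

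The Tet3 signal of the 7 dpi sample was close to that of MEF. The probe used for Tet3 was 2.56-fold, 3.89-fold and 6.94-fold of MEF at 1, 3 and 5 dpi but 1.23-fold on the 7 dpi-labelled array, and a second probe that was above background at 1, 3 and 5 dpi was not above it in MEF, on the 7 dpi-labelled array or in neurons. The third probe, above background on every array, stayed within 2-fold of MEF throughout, at 0.73-fold, 1.24-fold, 1.28-fold and 1.33-fold on the 4 Tet3 arrays in order of time. The label of the 7 dpi sample gives days after infection and no Tet3 level. Whether that sample is other than labelled was not tested. It is called the 7 dpi-labelled array throughout. Among cell type markers, all 10 fibroblast markers on it were within 2-fold of MEF. On the same array 8 of 10 neuron markers (median 3.75) and 7 of 8 muscle markers (median 3.07) were at least 2-fold higher. All 9 macrophage markers measured were lower (median -8.63). Of all genes, 17.0% were higher there and 6.84% lower. Macrophage markers were lower than in MEF on every other array too. Primary neurons had 9 of 10 neuron markers higher and 9 of 10 fibroblast markers lower than MEF. They also had 10 of 10 radial glia and astrocyte markers higher. In that sample 30.1% of all genes were higher than MEF and 16.1% lower.

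Mitotic and neuronal members followed different courses. Of the 10 mitotic kinesins 7 had their highest level at 3 dpi, 2 at 5 dpi and 1, Kif18a, in neurons, where the class median was nearer to MEF. Of the 19 neuronal members 1, 6, 8 and 11 were at least 2-fold higher than MEF on the 4 Tet3 arrays in order of time and 14 in neurons, and 16 of 19 had their highest level in neurons. At 1 dpi only 4 of 56 members with a difference were at least 2-fold higher than MEF and 1 was lower, against 5.39% and 5.98% of all genes. The 4 were Kif18b, Kif1a, Kif24 and, as a bound, Kif6, and the lower one was Kif3a. At 3 dpi 26 of 58 were higher and 3 lower (all genes 16.3% and 9.82%), and at 5 dpi 26 of 59 were higher and 1 lower (all genes 17.9% and 8.21%). The members lower at 3 dpi were Tuba3b, Kif5a and Kif3a, and Tuba3b was the one lower at 5 dpi. On the 7 dpi-labelled array 21 of 57 were higher and 3 lower, beside 17.0% and 6.84% of all genes, the lower ones being Tuba3b, Kif3a and Kif9. In neurons 29 of 59 were higher and 4 lower, beside 30.1% and 16.1%, and the 4 lower were Tuba1c, Tuba3b, Kif26b and Kif16b. Centring each array on its median instead lowered these counts to 15 higher and 4 lower at 3 dpi, 16 and 6 at 5 dpi, 13 and 7 on the 7 dpi-labelled array, and 20 and 12 in neurons, because that scaling puts the median gene of neurons at -0.59 relative to MEF where the main scaling puts it at 0.25. Quantile scaling gave 26 higher and 8 lower in neurons. In whole cultures, fewer cells of a type and less RNA per cell cannot be told apart.

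**Figure D2:**
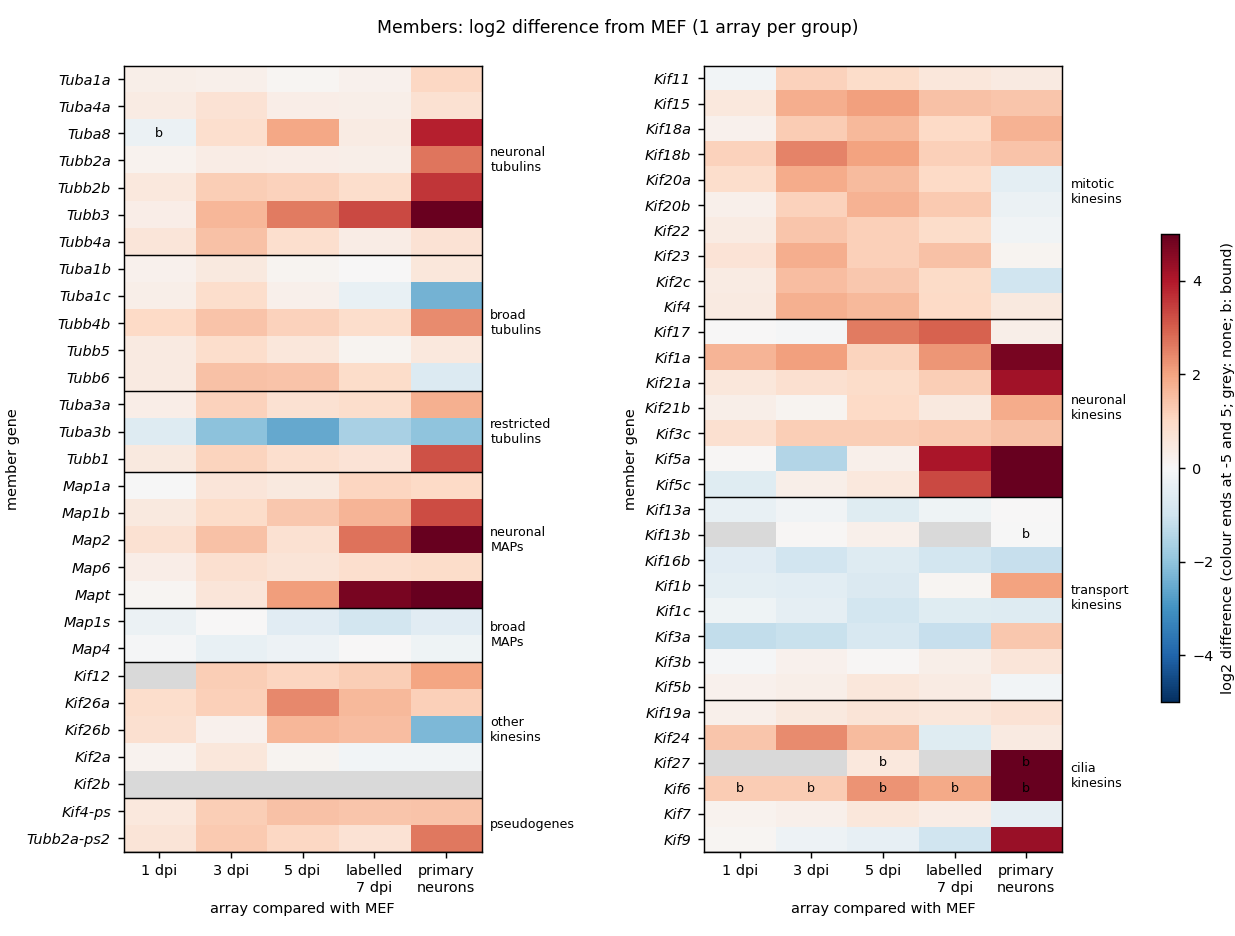
Log2 difference from MEF of every member on the 4 Tet3 arrays and in primary neurons, grouped by role. Each row is a member and each column an array; the colour gives the log2 difference, and grey cells have no value because at least 1 of the 2 arrays was not above background and no bound could be set. Most mitotic kinesins are most strongly coloured at 3 and 5 dpi. Most neuronal microtubule-associated proteins and kinesins are so on the 7 dpi-labelled array and in neurons. The neuronal tubulins have medians of 0.83 at 3 dpi, 0.85 at 5 dpi, 0.36 on the 7 dpi-labelled array and 2.69 in neurons.

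The median difference of the 10 mitotic members from MEF was 0.42 at 1 dpi, 1.67 at 3 dpi, 1.60 at 5 dpi and 1.00 for the 7 dpi-labelled array. That of the 19 neuronal members was 0.34, 0.82, 0.93 and 1.22 over the same arrays, while the median of all genes stayed between 0.07 and 0.20. The neuronal minus the mitotic median was thus -0.85 at 3 dpi, -0.67 at 5 dpi and 0.22 for the 7 dpi-labelled array, where normexp background correction left 0.02. In neurons the neuronal median was 3.26 and the mitotic median 0.29, a gap of 2.96; the mitotic median there changed sign with the scaling, to -0.24 with quantile scaling and -0.50 with median centring. Among the 4 Tet3 arrays, 7 of 10 mitotic members were highest at 3 dpi and the other 3 at 5 dpi. Of the neuronal members 12 of 19 were highest on the 7 dpi-labelled array, 4 at 3 dpi, 2 at 5 dpi and 1 at 1 dpi. Both counts include near ties. Kif4 measured -0.89 at 3 dpi and -1.05 at 5 dpi. On the 7 dpi-labelled array Map6 measured 1.41, against 1.38 at 3 dpi, and Kif3c 1.43, against 1.36 at 5 dpi. The other probes of Map6 and Kif1a were highest among the Tet3 arrays at 3 dpi, and that of Kif5a at 5 dpi.

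**Figure D3:**
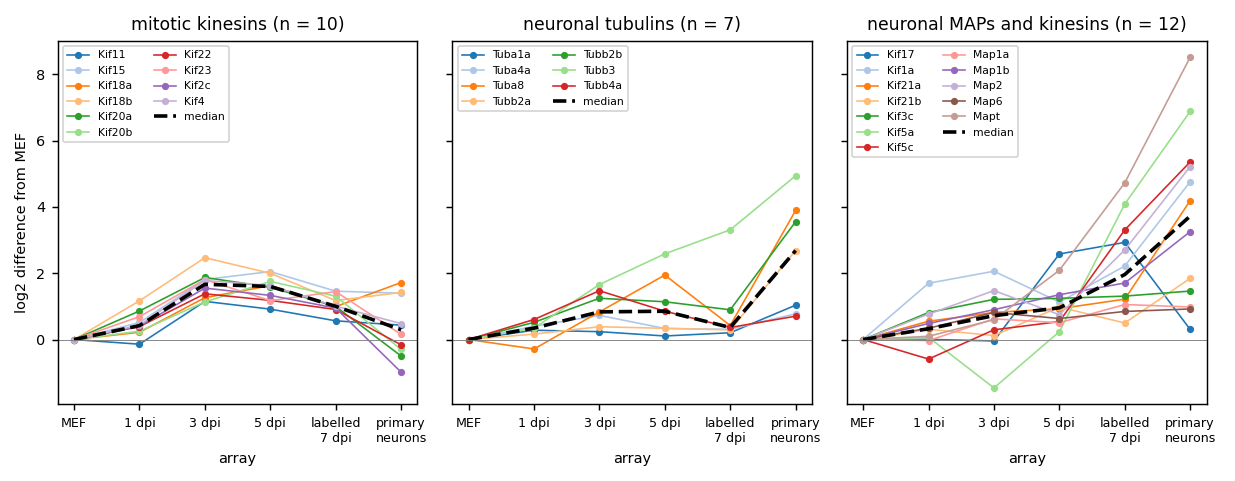
Log2 difference from MEF (vertical axis) on the 4 Tet3 arrays and in primary neurons (horizontal axis) for mitotic and neuronal members. The panels hold the mitotic kinesins, the neuronal tubulins, and the neuronal microtubule-associated proteins with the neuronal kinesins. Thin lines are single members and the thick dashed line is the median of the panel. Lines join different samples, 1 array each. The mitotic median is 1.67 at 3 dpi and 0.29 in neurons. The median of the neuronal tubulins is 0.345 at 1 dpi and 2.685 in neurons. The median of all 19 neuronal members is not drawn.

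All 10 mitotic kinesins were at least 2-fold higher at 3 dpi than in MEF, 9 were at 5 dpi and 5 for the 7 dpi-labelled array. Of all genes, 16.3%, 17.9% and 17.0% were higher on these arrays in turn. The differences of the mitotic members at 3 dpi ran from 1.14 to 2.47. Of the 10, 7 stayed past 2-fold under quantile scaling and under median centring. Median centring left 6 at 5 dpi and 2 on the 7 dpi-labelled array, where quantile scaling and normexp left 3. In neurons 3 were higher, beside 30.1% of all genes, and 7 within 2-fold. Kif18b had levels of -3.40 in MEF, -2.23 at 1 dpi, -0.93 at 3 dpi, -1.40 at 5 dpi, -2.23 for the 7 dpi-labelled array and -1.98 in neurons. It was 5.54-fold higher than MEF at 3 dpi, the largest difference of the class, and the only mitotic member past 2-fold at 1 dpi (2.25-fold), which it did not reach with quantile scaling or normexp.

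Kif20a, which carries cytokinesis factors to the central spindle, stood at -0.41 in MEF, 0.45 at 1 dpi, 1.46 at 3 dpi, 1.17 at 5 dpi, 0.59 for the 7 dpi-labelled array and -0.90 in neurons. Its highest and lowest arrays were 3 dpi and neurons. Kif23, which also acts in the midzone, went from -1.69 in MEF to 0.12 at 3 dpi, its highest array, then -0.52, -0.24 and -1.53 at 5 dpi, on the 7 dpi-labelled array and in neurons. Kif2c, which depolymerises microtubules to correct chromosome attachments, measured -2.27, -1.87, -0.72, -0.94 and -1.32 from MEF to the 7 dpi-labelled array and -3.26 in neurons. Like Kif20a it was lowest in neurons. Kif11 had the least range of the class, from -2.99 at 1 dpi to -1.69 at 3 dpi. It passed 2-fold at 3 dpi alone (2.22-fold).

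Kif15, a second pole-separating motor, and the chromosome-aligning Kif18a were highest among the Tet3 arrays at 5 dpi, by 2.05 and 1.62 over MEF, as was Kif20b, which acts late in cytokinesis, by 1.75. Beside 30.1% of all genes, 3 of 10 mitotic members were past 2-fold higher in neurons: Kif18a, Kif15 and Kif18b, by 1.72, 1.40 and 1.42. These calls depended on the scaling: with quantile scaling 0 mitotic members were past 2-fold higher in neurons and 2 were lower, and with median centring 0 and 3. Kif4 and Kif22 were 3.44-fold and 2.60-fold higher than MEF at 3 dpi and within 2-fold in neurons. The proliferation markers moved alongside. Of these, 7 of 10 were at least 2-fold higher than MEF at 3 dpi, 6 at 5 dpi, 4 for the 7 dpi-labelled array and 1 in neurons. Their medians were 1.37, 1.19, 0.62 and 0.05. Of all genes, 16.3%, 17.9%, 17.0% and 30.1% were higher on the same arrays. The summed macrophage markers went from 8.18 in MEF to 5.64, 4.12, 1.59 and 1.01 on the Tet3 arrays in order of time. What part a change in cell composition had in the mitotic result was not tested.

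Among the tubulins that most cells make, Tuba1b, Tuba1c, Tubb4b, Tubb5 and Tubb6, all 5 were highest among the Tet3 arrays at 3 dpi. Of these, 2, Tubb4b and Tubb6, were then past 2-fold over MEF, beside 16.3% of all genes. Tubb6, a beta tubulin widespread outside the nervous system, measured 3.28 in MEF, 3.71 at 1 dpi, 4.76 at 3 dpi, 4.69 at 5 dpi, 4.18 for the 7 dpi-labelled array and 2.58 in neurons. It was lowest in neurons, 3.04-fold below the 7 dpi-labelled array. Tuba1c stood at 3.22, 3.52, 4.09, 3.47 and 2.86 from MEF to the 7 dpi-labelled array and at 0.87 in neurons, 5.10-fold below MEF. Tubb4b had the opposite order of MEF and neurons, 2.11 against 4.46, with 3.56 at 3 dpi. Tuba1b and Tubb5 stayed within 2-fold of MEF on all 5 other arrays with the probe used, whereas the other Tuba1b probe was 2.57-fold higher in neurons. On the 7 dpi-labelled array no broad tubulin was past 2-fold over MEF, beside 17.0% of all genes.

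The neuronal tubulins divided on the 7 dpi-labelled array. Tubb3, the beta tubulin used as a label of young neurons, was past 2-fold there while the other 6 of the class were not. Of all genes 17.0% were higher on that array. Tubb3 measured -0.85 in MEF, -0.50 at 1 dpi, 0.81 at 3 dpi, 1.74 at 5 dpi, 2.46 for the 7 dpi-labelled array and 4.09 in neurons, each array above the one before. That made it 9.92-fold higher than MEF on the 7 dpi-labelled array and 30.7-fold in neurons. Tubb2b, a beta tubulin of the developing cortex, stood at 2.34, 2.86, 3.58, 3.48, 3.23 and 5.89 in the same order. It was past 2-fold over MEF at 3 and 5 dpi and 11.8-fold higher in neurons.

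Tubb2a measured 2.50 in MEF, between 2.66 and 2.88 on the 4 Tet3 arrays and 5.18 in neurons, 6.43-fold over MEF. No Tet3 array came near the neurons. Tuba1a, the main alpha tubulin of new neurons, lay between 4.97 and 5.25 on all arrays but neurons, which had 6.01. Tuba8 was -5.63 in MEF, close to background, -3.68 at 5 dpi, -5.20 for the 7 dpi-labelled array and -1.73 in neurons. Tubb4a, a brain-enriched beta tubulin, was highest at 3 dpi, by 1.47 over MEF, and Tuba4a was within 2-fold of MEF throughout. The transcripts of Tuba1a, Tuba1b and Tuba1c, of Tubb2a and Tubb2b, and of Tuba3a and Tuba3b are nearly identical in coding sequence, as is Tubb2a-ps2 to Tubb2a. How far their probes share signal was not tested, since probe sequences were not used here.

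The microtubule-associated proteins of axons and dendrites were mostly higher on the 7 dpi-labelled array. There 4 of 5 were past 2-fold over MEF (class median 1.71), beside 17.0% of all genes. Mapt (tau), which binds axonal microtubules, had the widest range of all members. Its level was -3.96 in MEF, -3.86 at 1 dpi, -3.36 at 3 dpi, -1.87 at 5 dpi, 0.77 for the 7 dpi-labelled array and 4.56 in neurons. The 3 earliest arrays lie close together and the next 3 climb apart, to 26.5-fold over MEF on the 7 dpi-labelled array and 366-fold in neurons. Map2, which spaces microtubules in dendrites, measured -1.38, -0.61, 0.09, -0.63, 1.32 and 3.84 in that order. It dipped at 5 dpi between 2 higher arrays and was 6.52-fold over MEF on the 7 dpi-labelled array.

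Map1b, an early microtubule-associated protein of growing axons, stood at 0.67, 1.15, 1.57, 2.02, 2.37 and 3.92 with the probe used, higher on each array in turn. Its other probe fell from -2.961 at 3 dpi to -3.175 at 5 dpi. Over MEF that probe was 0.59 higher at 5 dpi and 1.51 in neurons, where the probe used gave 1.35 and 3.26. Map1a, the counterpart of Map1b in mature dendrites, passed 2-fold with the probe used on the 7 dpi-labelled array alone (1.06). The other Map1a probe did so on 4 arrays. Map6, which makes microtubules stable to cold, stayed below 2-fold with the probe used, at 0.82 over MEF at 3 dpi and 0.85 on the 7 dpi-labelled array. The broadly made Map4 and Map1s stayed within 2-fold of MEF on every array, Map4 within a range of 0.40 in all.

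With the probe used for each gene, the neuronal kinesins had a class median of 2.22 over MEF on the 7 dpi-labelled array. That was above the medians of the neuronal tubulins (0.36) and microtubule-associated proteins. Of the 7 kinesins 6 were past 2-fold higher, beside 17.0% of all genes. Kif5a, a conventional kinesin heavy chain of neurons, measured -2.73 in MEF, -2.66 at 1 dpi, -4.19 at 3 dpi, -2.49 at 5 dpi, 1.36 for the 7 dpi-labelled array and 4.15 in neurons. With the probe used, Kif5a was 2.75-fold lower than MEF at 3 dpi and 17.0-fold higher on the 7 dpi-labelled array. Its other probe differed from MEF by -0.69 on the latter. Kif5c followed with -1.73, -2.32, -1.44, -1.19, 1.58 and 3.63. For both, the 7 dpi-labelled array and neurons stood apart from the other 4. The ubiquitous heavy chain Kif5b lay within a range of 0.72 over the 6 arrays.

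Kif1a, which carries synaptic vesicle precursors, was already 3.25-fold higher than MEF at 1 dpi, and measured -0.31 in MEF and 1.39, 1.75, 0.82, 1.90 and 4.45 on the later arrays. Kif3c, a Kif3 family motor subunit enriched in neurons, was past 2-fold at 3 dpi (1.21) and reached 1.31 on the 7 dpi-labelled array and 1.46 in neurons. Kif21a, an anterograde motor that also restrains microtubule growth, was 1.22 higher on the 7 dpi-labelled array and 4.19 higher in neurons, and its relative Kif21b 0.50 and 1.84. Alongside these members, the summed neuron markers stood at 3.65 in MEF, between 4.15 and 4.67 on the Tet3 arrays and at 6.39 in neurons, and the summed radial glia and astrocyte markers between 1.85 and 3.09 on the first 5 and at 7.08 in neurons. The part of cell composition in the neuronal result was not tested. Kif17, a dendritic motor, differed from the rest of its class. Its levels were -1.60, -1.60 and -1.65 in MEF, at 1 dpi and at 3 dpi, then 0.98 at 5 dpi and 1.33 for the 7 dpi-labelled array, and -1.30 in neurons. Kif17 was the only neuronal member at least 2-fold higher on the 7 dpi-labelled array than in neurons, by 2.63, and that call rests on 1 probe: the mean over its 2 probes gave 0.12.

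**Figure D4:**
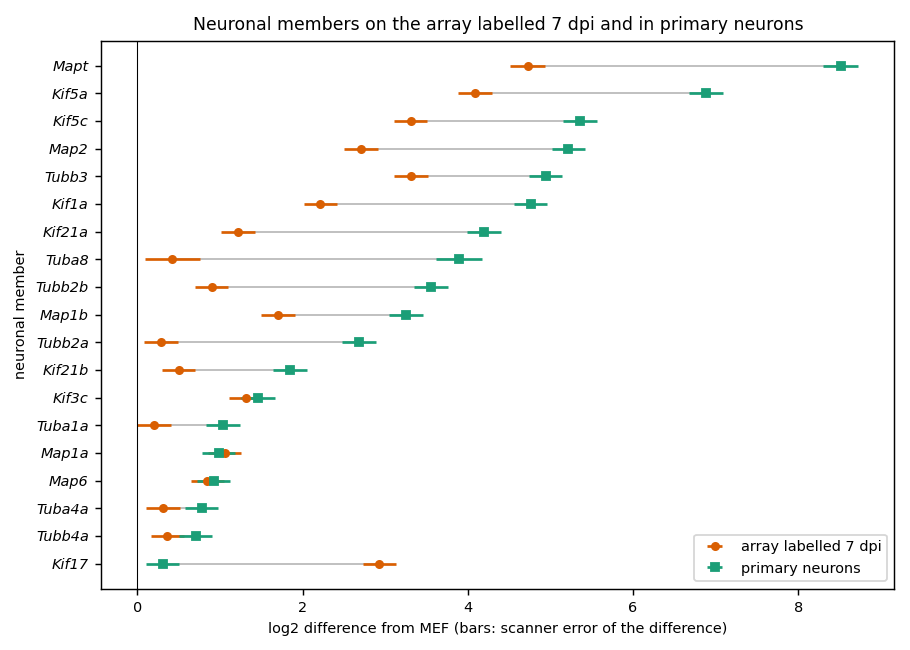
Log2 difference from MEF of the 19 neuronal members on the 7 dpi-labelled array and in primary neurons. Each row is a member and the horizontal axis is the log2 difference; the 2 points of a row are the 2 samples. Mapt, Kif5a, Kif5c and Tubb3 lie well to the right on both arrays, and Tubb2a and Tubb2b do so in neurons only.

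Measured between the 3 dpi array and the 7 dpi-labelled array, both in the second scan, 7 of 57 members were at least 2-fold higher on the latter and 4 lower, beside 11.2% and 7.00% of all genes. The 7 were Mapt (17.5-fold), Kif5a (46.7-fold), Kif5c (8.08-fold), Kif17 (7.85-fold), Tubb3 (3.14-fold), Map2 (2.34-fold) and the unclassed Kif26b (2.46-fold). The other Kif5a probe changed by 0.14 between these arrays, and the other Kif17 probe had no value. The 4 lower were Kif24 (7.70-fold), Kif18b (2.45-fold), Tuba1c (2.35-fold) and Tubb4a (2.16-fold). Of the mitotic members 9 of 10 were within 2-fold, with a median of -0.53.

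Set against primary neurons, 9 of 58 members were at least 2-fold higher on the 7 dpi-labelled array and 21 lower, beside 14.0% and 19.5% of all genes. Of the neuronal members 12 of 19 were lower there, with a median of -1.63. Of the mitotic members 5 of 10 were higher, Kif20a, Kif20b, Kif22, Kif23 and Kif2c, by between 1.06 and 1.93. For the 14 neuronal members past 2-fold over MEF in neurons, the 7 dpi-labelled array stood at 10.8% (Tubb2a) to 89.6% (Kif3c) of the log2 distance from MEF to neurons. The tubulins apart from Tubb3 lay lowest, Tuba8 at 10.9%, Tuba1a at 19.8% and Tubb2b at 25.2%. The kinesins Kif21b and Kif21a came next at 27.0% and 29.0%, then Kif1a at 46.6%. Map2, Map1b and Mapt were at 51.8%, 52.4% and 55.5%, Kif5a and Kif5c at 59.3% and 61.7%, and Tubb3 at 67.0%. These values come from single arrays and from the probe used for each gene, and the order of near neighbours has no check.

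The 8 kinesins of general transport were mostly within 2-fold of MEF. None was past 2-fold higher on a Tet3 array, and Kif3a, a subunit of the heterotrimeric kinesin that builds cilia and carries cargo, was the only one lower. It measured -0.03 in MEF, -1.24, -1.13, -0.84 and -1.19 on the Tet3 arrays and 1.33 in neurons, below MEF on all 4 former and above it in the last. Kif1b, a mitochondrial and vesicle motor, was higher in neurons by 2.00, and Kif16b, an early endosome motor, lower by 1.17.

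Kinesins tied to cilia divided in neurons. Kif9, found in motile cilia, lay between -4.75 and -3.64 on the other 5 arrays and at 0.57 in neurons, 19.8-fold over MEF. Kif6 and Kif27 were not well above background in MEF and were at least 56.0-fold and at least 31.7-fold higher in neurons, bounds set by the lowest level measurable on the MEF array. The motile cilia markers were higher in the same sample. All 8 measured were at least 2-fold above MEF in neurons (median 5.66), beside 30.1% of all genes. Their summed level was 4.94 in neurons and between -2.38 and 0.17 elsewhere, and 4 of them (Foxj1, Dnah5, Dnah9 and Cfap43) were not above background in MEF. The part that ciliated cells in the neuron sample had in these values was not tested. Kif7, of the Hedgehog pathway, and Kif19a stayed within 2-fold of MEF in neurons. Kif24, a centriolar kinesin that restrains cilium assembly, was highest at 3 dpi, as most mitotic members were, with -0.14 in MEF, 1.25 at 1 dpi, 2.21 at 3 dpi, 1.43 at 5 dpi, -0.74 for the 7 dpi-labelled array and 0.33 in neurons.

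Among the remaining members, Tuba3b, an alpha tubulin known from testis, was at least 2-fold lower than MEF on 4 arrays. It stood at 1.52 in MEF, 0.86 at 1 dpi, -0.53 at 3 dpi, -1.03 at 5 dpi, -0.09 for the 7 dpi-labelled array and -0.50 in neurons, 5.85-fold below MEF at 5 dpi. MEF was its highest array. The closely related Tuba3a, with the probe used, was lower in MEF than on any other array and 1.76 higher in neurons. Its other probe differed from MEF by -0.33 at 1 dpi. Tubb1, the beta tubulin of platelets, was 3.19 higher in neurons. Kif26b, an unconventional kinesin of developing mesenchyme, measured 0.42 in MEF, 1.21, 0.65, 2.09 and 1.95 on the Tet3 arrays and -1.83 in neurons, 13.7-fold below the 7 dpi-labelled array. Kif26a and Kif12 were past 2-fold over MEF at 3 and 5 dpi, on the 7 dpi-labelled array and in neurons. Kif2a, which depolymerises microtubules in neurons and spindles alike, stayed within 2-fold of MEF. Both pseudogenes were past 2-fold at 3 dpi, Kif4-ps by 1.24 and Tubb2a-ps2 by 1.30.

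Other genes of the microtubule system were counted in lists outside the rule. Of all genes, 5.39%, 16.3%, 17.9% and 17.0% were at least 2-fold higher than MEF on the Tet3 arrays in order of time. In neurons 30.1% were. The shares lower were 5.98%, 9.82%, 8.21% and 6.84% on the Tet3 arrays and 16.1% in neurons. Of 20 further spindle genes, 2 were at least 2-fold higher than MEF at 1 dpi, 17 at 3 dpi, 15 at 5 dpi, 13 for the 7 dpi-labelled array and 4 in neurons, and the cytokinesis scaffold Anln (2.46) and the midzone bundler Prc1 (2.21) had the largest differences at 3 dpi. Of 13 further neuronal microtubule regulators 3, 5, 7 and 6 were higher on the Tet3 arrays in order of time and 10 in neurons, while 2, 2, 2 and 0 were lower on the Tet3 arrays and 1 in neurons. The tubulin-binding stathmins Stmn2 and Stmn4 were 6.27 and 4.97 higher than MEF on the 7 dpi-labelled array, Stmn3 at least 7.97 higher, and Dcx, a microtubule protein of migrating neurons, 5.10.

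Of all genes 30.1% were higher than MEF in neurons and 16.1% lower, and the Tet3 shares were those given above. Of 14 dynein subunits and motor adaptors, 0, 3, 1 and 1 were past 2-fold higher on the Tet3 arrays in order of time, and 3 were higher and 4 lower in neurons. The one on the 7 dpi-labelled array was Dync1i1, the neuronal dynein intermediate chain, which measured -4.44 in MEF, -3.59, -2.17, -0.22 and 1.25 on the Tet3 arrays and 1.44 in neurons. It was the only gene of that list more than 4-fold higher in neurons, and the 7 dpi-labelled array differed from neurons by -0.19. Of 16 tubulin-modifying and severing enzymes 1, the polyglutamylase Ttll11, was higher on each Tet3 array, and 6 were higher and 1 lower in neurons, Vash1, a tyrosine-removing enzyme, by 2.48 and the severing protein Fign by -2.88. Of 16 tubulin folding and nucleation genes none was past 2-fold in either direction at 1 or 3 dpi, on the 7 dpi-labelled array or in neurons, and Tube1 (epsilon tubulin) alone was at 5 dpi, being 2.14-fold higher.

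Probes of a gene did not always agree. Of the members with at least 2 probes measured, the 2-fold call over MEF differed between probes for 0 of 18 genes at 1 dpi and 5 of 19 at 3 dpi. It differed for 4 of 19 at 5 dpi, 2 of 18 on the 7 dpi-labelled array and 7 of 20 in neurons. Between the 7 dpi-labelled array and 3 dpi it differed for 4 of 18, and between that array and neurons for 7 of 20. The other Kif1a probe, highest of the Tet3 arrays at 3 dpi, changed by -2.02 from there to the 7 dpi-labelled array. The Kif1a probe used changed by 0.16. The other probe of Kif5a, matched to a different transcript record, measured -4.11 in MEF, -4.80 on the 7 dpi-labelled array and -3.95 in neurons, so the gains above come from 1 of its 2 probes. The other Kif17 probe was above background in neurons alone, at -5.32. The other Map6 probe was 2.14 higher than MEF at 3 dpi and 0.22 higher on the 7 dpi-labelled array, and that of Kif1b 0.32 higher in neurons. All 3 probes of Mapt were lower on the 3 earliest arrays than on any later one, rose from 5 dpi on and were highest in neurons, but differed in the order of the 3 earliest. The other Map1a probe was past 2-fold over MEF at 3 dpi (1.43), at 5 dpi (1.05), on the 7 dpi-labelled array (1.61) and in neurons (1.78).

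**Figure D5:**
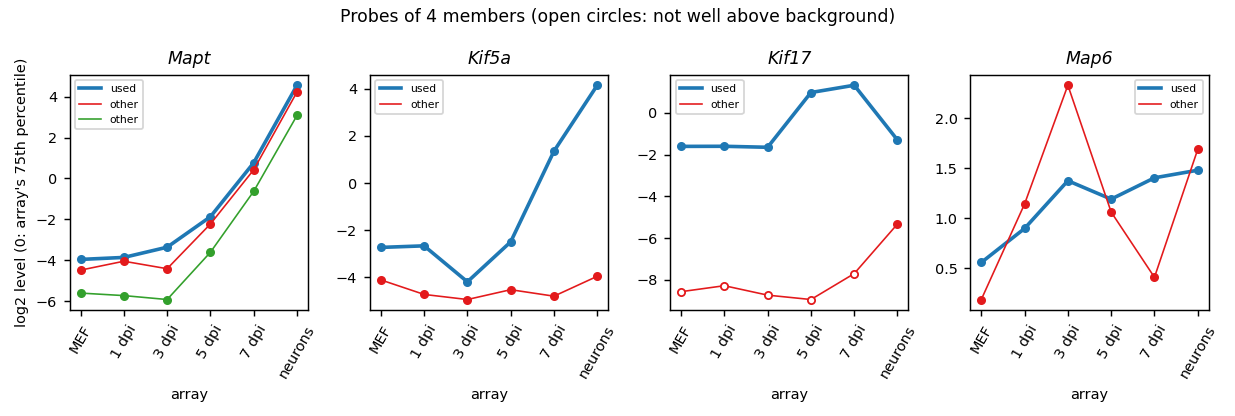
Log2 levels of every probe of Kif5a, Kif17 and Map6, picked from the members whose probes differ, with Mapt as a case where they run together. Other members whose probes differ are not drawn. Each panel is a gene, the horizontal axis the 6 arrays, the vertical axis the log2 level, and the bold line the probe used. The 2 probes of Kif5a part on the 7 dpi-labelled array and in neurons, and the 3 probes of Mapt rise in parallel from 3 dpi.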

How the data were processed

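RNA of 6 samples was labelled with Cy3 and hybridised to 1-colour Agilent arrays, per the labels; the deposited scanner intensity values were extracted by Agilent Feature Extraction 11.0.1.1, per the file headers. The levels used are the log2 values of the authors' deposited series table, whose 75th percentile is at 0 on each array; they differed from scaled scanner intensity values as deposited by at most 0.0068 for members. Of 39429 probes, 27234 were named through RefSeq accessions, giving 20659 genes. Genome alignment does not apply, and the sources used here do not give the scaling software.

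Differences were log2 levels subtracted between 2 arrays, with 1 array per group and no test. Where 1 side was not well above background, it was replaced by the higher of its own value and the lowest level above background, giving a bound. Background flags and array errors came from the scanner files. Alternatives were scaled scanner values, normexp (limma 3.58.1, R 4.3.3, offset 50, on median signals), quantile scaling, median centring, requiring signal above background on both arrays, dropping that filter, averaging probes, a 4-fold threshold and class means. The members and lists were chosen with earlier results of these data known. Named were all mitotic, neuronal and broad members, other members at least 2-fold different in a comparison, and up to 4 genes of each further list; members named beyond that rule were chosen after their values were seen.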

Additional observations from a re-analysis of the deposited data

Results flagged for a closer look

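Kif5a, the neuronal kinesin heavy chain, had differences of opposite sign on 2 arrays of the same contrast: -1.46 at 3 dpi over MEF and 4.08 on the 7 dpi-labelled array over MEF. Each is 1 array against the same MEF array, and the difference between them was not tested. The other Kif5a probe gave values below MEF on both of these arrays (-0.83 and -0.69).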

How the results depend on the processing

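No alternative turned the sign of a difference that had passed 2-fold. Scaled scanner values, requiring both arrays above background, no filter, and choosing the brightest probe on a linear scale moved the counts by at most 2 members and the class medians and gaps by at most 0.01; with both arrays above background, 3 members were higher at 1 dpi and 27 in neurons. Leaving out pseudogenes lowered the counts by at most 2 members, to 24 higher at 3 dpi, 24 at 5 dpi and 27 in neurons. The last 2 alternatives, and leaving tubulins out of the neuronal class, were added after the data had been seen. With 1 array per group no replicate could be left out. No paired analysis was possible because each group holds 1 array. Naming genes by the array's own gene name column was not run, because the files used hold no such column.

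A 4-fold threshold left 0 members higher and 0 lower at 1 dpi, 3 and 1 at 3 dpi, and 6 higher at 5 dpi. It left 7 higher but 0 lower for the 7 dpi-labelled array, and 17 higher in neurons. Between 3 dpi and the 7 dpi-labelled array it left 4 higher and 1 lower. On that array 2 were higher than in neurons. Members also passed 4-fold lower where only higher ones are counted here. These were Tuba3b at 5 dpi (-2.55), and Tuba1c (-2.35), Kif26b (-2.25) and Tuba3b (-2.02) in neurons. On the 7 dpi-labelled array against neurons they included Kif9 (-5.32), Mapt (-3.79) and Kif21a (-2.97). The share of all genes past 4-fold is not given here. Median centring gave 15 members higher at 3 dpi with medians of 1.37 (mitotic) and 0.52 (neuronal), 16 higher and 6 lower at 5 dpi with 1.20 and 0.53, 13 and 7 on the 7 dpi-labelled array with 0.56 and 0.78, and 12 lower in neurons with -0.50 and 2.46. Against neurons, the 7 dpi-labelled array had 1.16 and -1.27. The share of called members that were higher fell with it from 89.7% to 78.9% at 3 dpi, 96.3% to 72.7% at 5 dpi, 87.5% to 65.0% on the 7 dpi-labelled array and 87.9% to 62.5% in neurons (quantile 76.5%).

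Quantile scaling gave 1.43 and 0.50 at 3 dpi, 1.28 (mitotic) and a neuronal minus mitotic gap of -0.39 at 5 dpi, 0.99 (neuronal) on the 7 dpi-labelled array, and 8 lower, -0.24 (mitotic) and a gap of 3.42 in neurons. Between the 7 dpi-labelled array and neurons it gave -2.08 (neuronal) and a gap of -3.06. Normexp gave 2 members higher at 1 dpi, medians of 1.46 and 0.57 at 3 dpi, 2 lower and 1.37 (mitotic) at 5 dpi, 0.97 (neuronal) on the 7 dpi-labelled array, and 2.68 (neuronal) with a gap of 2.40 in neurons. Averaging probes gave 2.68 and a gap of 2.39 in neurons. Class means put the neuronal members at 1.71 on the 7 dpi-labelled array and 0.97 over 3 dpi. Without tubulins the neuronal median was 1.96 (gap 0.96) on the 7 dpi-labelled array, 3.72 (gap 3.43) in neurons and 0.62 (gap 1.15) between 3 dpi and the 7 dpi-labelled array. The cause of these shifts was not tested. Members near background, such as Tuba8, Kif6, Kif13b and Kif27, have bounds or large array errors.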
